A study of Mus musculus with 8 samples.

Results

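The fibroblast growth factor (FGF) ligand and receptor genes described here are Fgf1, Fgf2, Fgf7, Fgf10, Fgf18, Fgfr1, Fgfr2, Fgfr3, Fgfr4 and Fgfrl1, taken by gene symbol as 10 of the 19301 genes in the deposited table. They were measured in tendon stem cells (TSCs), the study's name for primary cells released from the mouse patellar tendon by collagenase and grown on plastic. The study's methods describe no sorting or clonal selection of these cells. For 4 days the cells were kept either in low glucose medium with the solvent DMSO (LG) or in high fat, high glucose medium (HFHG), which held more glucose, and the saturated fatty acid palmitic acid at 300 µM. The groups were 4 libraries of HFHG and 4 of LG, described as biological replicates in the study's methods, which do not say whether each came from its own animal. Glucose and palmitic acid were raised together, so their parts cannot be told apart. The labels name no genetic change and no osteogenic induction in either group, and the model is a culture in altered medium, not a diabetic animal.

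FGF ligands are secreted proteins that bind receptor tyrosine kinases on the cell surface together with heparan sulfate chains of proteoglycans. The bound receptor phosphorylates the adaptor FRS2, which recruits GRB2 and SOS and so starts the RAS-RAF-MEK-ERK cascade. ERK in turn switches on ETS and AP-1 factors as well as inhibitors that damp the signal, such as Sprouty proteins and DUSP phosphatases. In developing tendon, FGF signals from the adjoining myotome induce the tendon transcription factor Scx, and FGF2 is a mitogen commonly used on tendon cells and fibroblasts.

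Levels are given in FPKM, the fragments of a gene relative to the length of the gene and to all mapped fragments of the library. The libraries held between 34308108 and 37362725 recovered reads, and 11710 genes passed the filter on low values (at least 0.5 FPKM in at least 4 of the 8 libraries). Marker genes of tendon cells and fibroblasts were present in all libraries and 16 of 19 were higher in HFHG, 2 lower and 1 not called, with a median log2 fold change of 0.60 and a summed level of 5510 to 5578 FPKM in HFHG against 3853 to 3912 FPKM in LG. Of the macrophage and leukocyte markers, 11 of 12 passed the filter; 8 were lower in HFHG, 1 was higher and 2 were not called, with a sum of 1759 to 1808 FPKM in HFHG and 1924 to 2008 FPKM in LG, most of it from the lysozyme gene Lyz2 (1637 ± 19.4 and 1765 ± 32.6 FPKM, SD, n = 4 each, not called lower under quantile normalization). The 7 epithelial markers summed to 0.281 to 0.871 FPKM over all libraries and none passed the filter, whereas 1 endothelial (Tek), 1 muscle (Acta1), 1 adipocyte (Cebpa) and 1 cartilage marker (Comp) did. Over all genes tested, 34.0% were called higher and 30.8% lower at an adjusted p-value below 0.05. The part of these cell type markers in the results on FGF genes was not tested. In bulk RNA a change in the share of a cell type and a change in RNA per cell cannot be told apart. LG replicate 4 stood apart from the other LG libraries, with a variance of reads 7.56 to 10.8 times the Poisson value in its pairs against 3.41 to 3.89 in the other LG pairs, and was the highest LG library in 0 of the 10 FGF genes. Without it, the 7 FGF genes that passed the filter had log2 fold changes of 1.47 (Fgf2), 1.19 (Fgf10), 0.79 (Fgfr2), 0.74 (Fgf7), 0.49 (Fgfrl1), -0.18 (Fgf18) and -0.50 (Fgfr1), with the same calls.

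The ligand genes Fgf2, Fgf7 and Fgf10 rose in HFHG, the main receptor gene Fgfr1 fell, and the receptor genes Fgfr2 and Fgfrl1 rose. The increase was largest for Fgf2, at 3.13 times the LG mean, and for Fgf10, at 2.31 times, while Fgfr1 was 1.41-fold lower. Fgf18 did not differ beyond the spread between libraries. Fgf1, Fgfr3 and Fgfr4 were below the filter. Of the 7 genes that passed it, 5 were higher and 1 was lower at an adjusted p-value below 0.05 (limma on log2(FPKM + 0.1), Benjamini-Hochberg over all 11710 genes). Calls were common in this comparison: 64.8% of all genes tested passed in either direction, 34.0% as higher and 30.8% as lower. At the threshold of the study's methods, a fold change of more than 2 with p below 0.05 before adjustment, 2 of the 7 were higher (Fgf2 and Fgf10), against 3.68% of all genes tested, and 0 were lower, against 1.65%. These shares come from the fit used here, on log2(FPKM + 0.1) after the filter, which called 431 genes higher. The paper reports more upregulated genes, so they are not its own shares. The HFHG and LG values did not overlap in 6 of the 7, against 59.2% of all genes tested. Over all genes tested the median absolute log2 fold change was 0.25 and the median log2 fold change 0.017. An absolute log2 fold change as large as that of Fgf2 was seen in 1.43% of genes, as large as that of Fgf10 in 3.37%, Fgfr2 in 8.94%, Fgf7 in 10.3%, Fgfr1 in 22.7%, Fgfrl1 in 22.9% and Fgf18 in 56.8%.

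**Figure D1:**
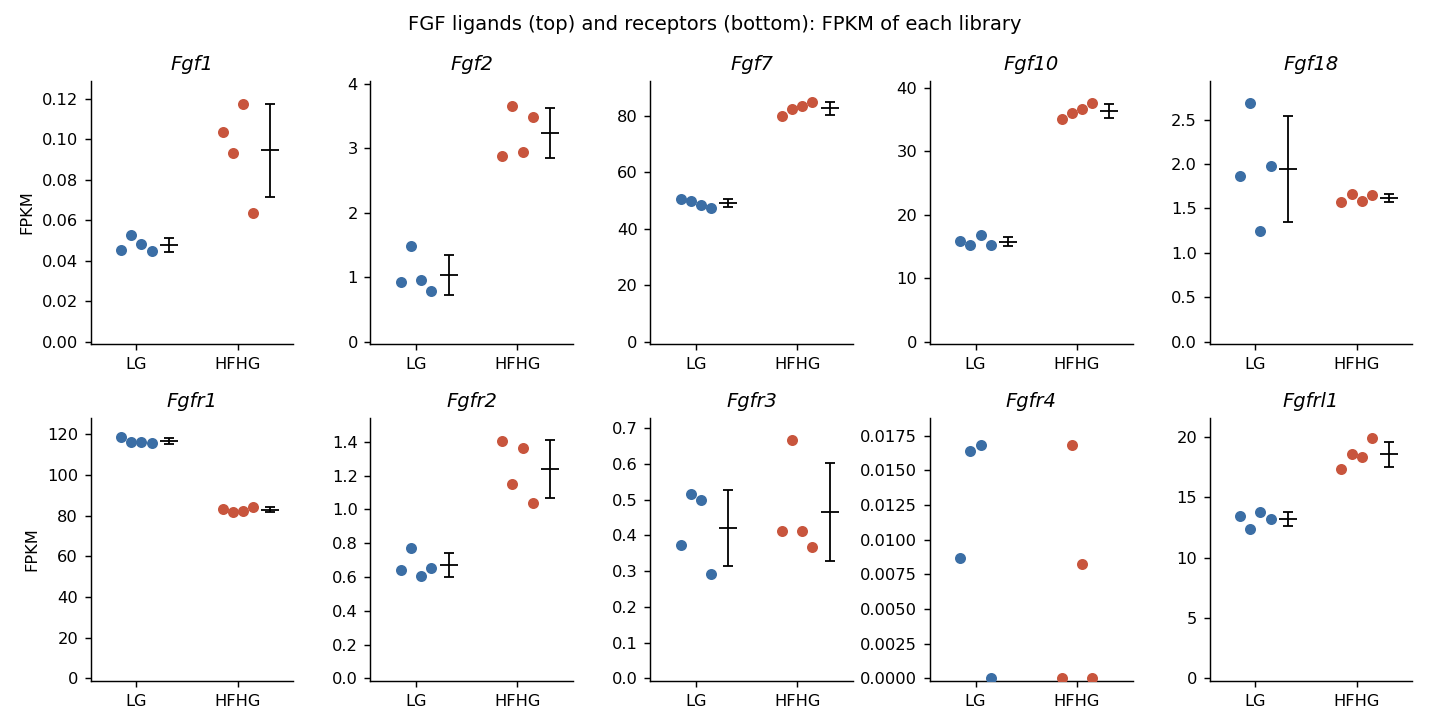
FPKM (vertical axes, linear and different for each gene) of the 10 FGF genes in the 4 LG (blue) and 4 HFHG (red) libraries, in the order of replicates 1 to 4, with the mean and SD in black; no mean is drawn for Fgfr4, which had 0 to 2 reads in each library. The groups are apart for Fgf1, Fgf2, Fgf7, Fgf10, Fgfr1, Fgfr2 and Fgfrl1, with Fgfr1 the gene whose HFHG values (81.7 to 84.4 FPKM) lie below those of LG.

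Fgf2 encodes basic FGF, a mitogen without a classical signal peptide that binds several FGF receptors. It lies on chromosome 3 (GRCm38, 37348477 to 37410106, plus strand; NCBI gene 14173). In the order of the replicates, its FPKM were 2.89, 3.66, 2.94 and 3.48 for HFHG and 0.928, 1.48, 0.956 and 0.779 for LG, and the values of the other genes follow in the same order. Each HFHG library was above each LG library, and LG replicate 2 stood above the other LG libraries. The group means were 3.24 ± 0.387 and 1.04 ± 0.308 FPKM (SD, n = 4 each), which rest on 206 to 252 reads per HFHG library and 54 to 105 per LG library. The log2 fold change was 1.58 (SE 0.158, adjusted p = 1.91e-06 by limma). Leaving out LG replicate 2 gave 1.76.

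Fgf2 shares 5125 bases of its span with Nudt6, a gene on the opposite strand that encodes a nudix hydrolase and is known as the FGF2 antisense transcript. The libraries were made with a stranded kit, but the strand setting of the count is not given in the sources used here. Reads of the shared stretch may thus have been assigned to either gene. In GENCODE M21 the span of Fgf2 also overlaps Fgf2os and Gm42923 on the opposite strand and Gm43439 on the same strand. The assignment of reads from those stretches is likewise not known. Nudt6 had 0.990, 1.19, 1.04 and 0.979 FPKM in HFHG and 0.679, 0.701, 0.881 and 0.810 FPKM in LG. It was higher in HFHG in the same direction as Fgf2 and less far, with a log2 fold change of 0.41 (SE 0.119, adjusted p = 0.00905 by limma), and with quantile normalization it was not called (log2 fold change 0.25, adjusted p = 0.0801). Spata5, the neighbour on the other side of Nudt6, was lower in HFHG (log2 fold change -0.36, adjusted p = 7.47e-04 by limma). The gene length that the FPKM of Fgf2 imply is 1948 bases, between the shortest (257) and the longest (5973) of its GENCODE M21 transcripts, so its level relative to other genes depends on the gene model that was used. The implied length of Nudt6, 4163 bases, was 3.29 times its longest GENCODE M21 transcript (1264 bases), so its level rests on a gene model that is not the GENCODE one, and its reads may include those of other transcripts of the locus.

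Fgf7 and Fgf10 encode close relatives that mesenchymal cells secrete and that act on the epithelial splice form of FGFR2. Fgf7 (keratinocyte growth factor, chromosome 2, 126034658 to 126091185, plus strand; NCBI gene 14178) had 79.8, 82.3, 83.5 and 85.0 FPKM in HFHG and 50.5, 49.6, 48.4 and 47.3 FPKM in LG. It was the ligand gene with the highest level of the 5 in each library, above 94.7% of all genes of the table by its mean. Its means were 82.6 ± 2.20 and 49.0 ± 1.38 FPKM (SD, n = 4 each), and the log2 fold change was 0.75 (SE 0.0300, adjusted p = 3.02e-10 by limma). Fgf10 (chromosome 13, 118714699 to 118792573, plus strand; NCBI gene 14165) had 35.0, 36.0, 36.7 and 37.5 FPKM in HFHG and 15.8, 15.2, 16.7 and 15.3 FPKM in LG. Replicates differed little and the groups were far apart, at means of 36.3 ± 1.06 and 15.8 ± 0.707 FPKM (SD, n = 4 each). The log2 fold change was 1.20 (SE 0.0390, adjusted p = 4.51e-11 by limma), and it stayed between 1.16 and 1.26 in the 19 alternatives. The summed level of the fibroblast markers given above moved in the same direction as Fgf2, Fgf7, Fgf10, Fgfr2 and Fgfrl1. It moved in the opposite direction to Fgfr1, and Fgf18 showed no detectable difference. Whether the markers had a part in any of these was not tested.

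Fgf18, a ligand known from bone and cartilage growth, lies on chromosome 11 (33116970 to 33147400, minus strand; NCBI gene 14172). Its FPKM were 1.58, 1.66, 1.58 and 1.65 in HFHG and 1.87, 2.69, 1.24 and 1.98 in LG. The HFHG libraries were close together, the LG libraries lay on both sides of them, and LG replicate 3 was the lowest and LG replicate 2 the highest of all 8. The log2 fold change was -0.21 (SE 0.170, adjusted p = 0.307 by limma; p = 0.429, exact two-sided permutation test), so no difference was detectable beyond the spread of the LG libraries. Without LG replicate 3 the gene was called lower in HFHG (-0.39, adjusted p = 0.0147), and without LG replicate 2 the log2 fold change was -0.04 (adjusted p = 0.819).

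Fgf1, acidic FGF, a ligand of all FGF receptors, had few reads. Its gene lies on chromosome 18 (38838672 to 38929470, minus strand; NCBI gene 14164) within the span of Arhgap26 on the opposite strand. It had 0.104, 0.0934, 0.118 and 0.0636 FPKM in HFHG and 0.0452, 0.0526, 0.0481 and 0.0450 FPKM in LG. These values come from 75, 64, 82 and 45 reads in HFHG and 30, 37, 33 and 31 in LG, and every HFHG library was above every LG library (exact two-sided permutation p = 0.0286, a floor set by having 4 libraries against 4). The reads of the pooled groups stood at a ratio of 1.98 (95% interval 1.60 to 2.46, counting error only). Fgf1 did not enter the fit across genes. When the filter was dropped it was called higher (adjusted p = 0.0211 by limma and 0.00630 by voom on the reads). Its implied length was 19363 bases, 4.86 times the longest GENCODE M21 transcript, so its FPKM would be larger under a shorter gene model and some of its reads may belong to other transcripts of the locus.

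Fgfr1 encodes the receptor that dominates in mesenchymal cells. It lies on chromosome 8 (25518759 to 25575718, plus strand; NCBI gene 14182) and had 83.4, 81.7, 82.5 and 84.4 FPKM in HFHG against 119, 116, 116 and 116 FPKM in LG. All HFHG libraries were below all LG libraries, and within each group the values were within a few FPKM of each other. The means were 83.0 ± 1.14 and 117 ± 1.41 FPKM (SD, n = 4 each), from 14531 to 21203 reads per library. The log2 fold change was -0.49 (SE 0.0229, adjusted p = 1.35e-09 by limma), and it ran from -0.53 to -0.42 over all alternatives. In level, Fgfr1 was above 96.7% of the genes of the table, the highest place among the 10.

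Fgfr2, whose splice forms bind either FGF7 and FGF10 or FGF2 and relatives, was low in both groups. It lies on chromosome 7 (130162451 to 130266808, minus strand; NCBI gene 14183). It had 1.40, 1.15, 1.36 and 1.04 FPKM in HFHG and 0.643, 0.773, 0.607 and 0.652 FPKM in LG, with 203 to 280 and 115 to 150 reads per library. The groups did not overlap, with HFHG replicate 4 and LG replicate 2 nearest to each other. The log2 fold change was 0.80 (SE 0.126, adjusted p = 1.17e-04 by limma); with a pseudocount of 1 it was 0.42 and remained past the threshold. FPKM of whole genes do not separate the splice forms.

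Fgfrl1 encodes a membrane protein that binds FGF ligands and heparan sulfate but lacks the tyrosine kinase domain. It lies on chromosome 5 (108694229 to 108706950, plus strand; NCBI gene 116701). Its FPKM were 17.4, 18.6, 18.4 and 20.0 in HFHG and 13.4, 12.4, 13.8 and 13.2 in LG, so that all HFHG libraries were above all LG libraries. The means were 18.6 ± 1.06 and 13.2 ± 0.599 FPKM (SD, n = 4 each), and the log2 fold change was 0.49 (SE 0.0488, adjusted p = 1.92e-06 by limma). The fall of Fgfr1 was of the same size on the log2 scale (-0.49).

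Fgfr3 and Fgfr4, the other receptor kinases, stayed below the filter. Fgfr3 (chromosome 5, 33721724 to 33737068, plus strand; NCBI gene 14184), known as a brake on cartilage growth, had 0.414, 0.668, 0.411 and 0.369 FPKM in HFHG and 0.373, 0.517, 0.498 and 0.292 FPKM in LG. The groups overlapped (p = 0.657, exact two-sided permutation test), and the ratio of their pooled reads was 1.10 (95% interval 0.932 to 1.30, counting error only). Fgfr4 (chromosome 13, 55152818 to 55168759, plus strand; NCBI gene 14186) had 3 reads in HFHG and 5 in LG, all libraries of a group together. Its FPKM were 0, 0.0168, 0.00828 and 0 in HFHG and 0.00869, 0.0164, 0.0168 and 0 in LG. In the 3 libraries with 0 reads, up to 3 reads remain possible, or 0.0239 to 0.0251 FPKM. The ratio of pooled reads was 0.585 with a 95% interval of 0.0908 to 3.01, and at this depth no difference could be detected (exact two-sided permutation p = 0.571).

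**Figure D2:**
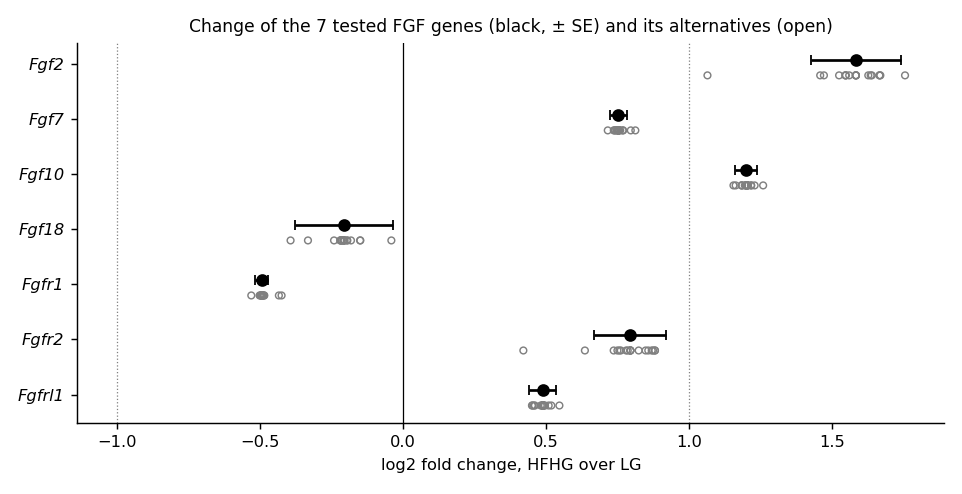
Log2 fold change (horizontal axis, HFHG over LG) of the 7 FGF genes that passed the filter, from limma on log2(FPKM + 0.1) with its SE in black, and the values of the 19 alternatives as open circles; the dotted lines stand at -1 and 1. Fgf2 and Fgf10 lie to the right of 1 in all settings, Fgfr1 stays between -0.53 and -0.42, and the circles of Fgf18 run from -0.39 to -0.04.

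FPKM are per length, so the levels can be set in order as far as the gene lengths behind them hold. By the deposited FPKM, the order in LG was Fgfr1, Fgf7, Fgf10, Fgfrl1, Fgf18, Fgf2, Fgfr2, Fgfr3, Fgf1 and Fgfr4, from 117 down to 0.0105 FPKM. Neighbours in this order had values that did not overlap between them, except Fgf18 and Fgf2. In HFHG, Fgfr1 and Fgf7 could no longer be told apart (83.0 ± 1.14 and 82.6 ± 2.20 FPKM, SD, n = 4 each), and Fgf2 stood above Fgf18 with values that did not overlap. The places of Fgf2 and Fgf1 depended on the length. When each FPKM was rescaled to the longest GENCODE M21 transcript of its gene, a choice made after seeing the data, Fgf2 had 1.06 ± 0.126 FPKM in HFHG (SD, n = 4), below Fgf18 at 2.30 ± 0.0637 and Fgfr2 at 1.50 ± 0.208 FPKM, with values that did not overlap. In LG the rescaled Fgf2 fell to 0.338 ± 0.101 FPKM and overlapped with Fgfr3 and Fgf1. The rescaled Fgf1 was 0.460 ± 0.111 FPKM in HFHG and overlapped there with Fgfr3 at 0.496 ± 0.146 FPKM, whereas the order of Fgfr1, Fgf7, Fgf10 and Fgfrl1 was the same with either length. The shares below are of the deposited FPKM, and the difference of a gene between HFHG and LG as a fold of its FPKM does not depend on its length. The sum of the 5 ligand genes was 119 to 128 FPKM in HFHG and 65.4 to 69.1 FPKM in LG. Fgf7 made up 66.5% to 66.9% of it in HFHG and 71.8% to 73.0% in LG, and Fgf10 made up 29.1% to 29.4% and 22.0% to 24.8%. Fgf2 held 2.35% to 2.95% of the sum in HFHG and 1.19% to 2.15% in LG, and Fgf18 held 1.27% to 1.34% and 1.84% to 3.89%. The sum of Fgfr1, Fgfr2, Fgfr3 and Fgfr4 was 83.6 to 85.8 FPKM in HFHG and 117 to 120 FPKM in LG, of which Fgfr1 was 97.8% to 98.4% and 98.9% to 99.2%.

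A ratio of 2 genes within a library does not depend on how the libraries are scaled to each other. The ratio of Fgfr2 to Fgfr1 was 1.68%, 1.41%, 1.65% and 1.23% in HFHG and 0.541%, 0.665%, 0.521% and 0.564% in LG, 2.60 times higher in HFHG by the mean of the log ratios. That of Fgfrl1 to Fgfr1 was 20.9%, 22.7%, 22.2% and 23.6% in HFHG and 11.3%, 10.7%, 11.8% and 11.4% in LG, a 1.98-fold difference. The ratio of Fgf2 to Fgf7 was 3.62%, 4.44%, 3.52% and 4.10% in HFHG and 1.84%, 2.99%, 1.98% and 1.64% in LG, a 1.90-fold difference, with LG replicate 2 nearest to the HFHG libraries. For each of the 3 ratios all HFHG libraries were above all LG libraries (p = 0.0286 in the exact two-sided permutation test, 0.0286 after adjustment over the 3). This is the smallest p-value that the design allows. For Fgfr2 to Fgfr1 and Fgfrl1 to Fgfr1 it follows from the separations given above. Fgfr2 and Fgfrl1 were higher and Fgfr1 was lower in every HFHG library, so these ratios are not a further test. For Fgf2 over Fgf7 the p-value was 0.0571 when any 1 of HFHG replicates 1, 2, 3 or 4 was left out. It was 0.0286 when an LG replicate was left out, and for the other ratios it stayed at 0.0286. Without 1 HFHG library the groups of Fgf2 over Fgf7 were still apart. The log2 difference was then 0.86 to 0.97, against 0.92 with all libraries. The p-value was larger because LG replicates 1, 3 and 4 differed even more from all other libraries, LG replicate 2 included.

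**Figure D3:**
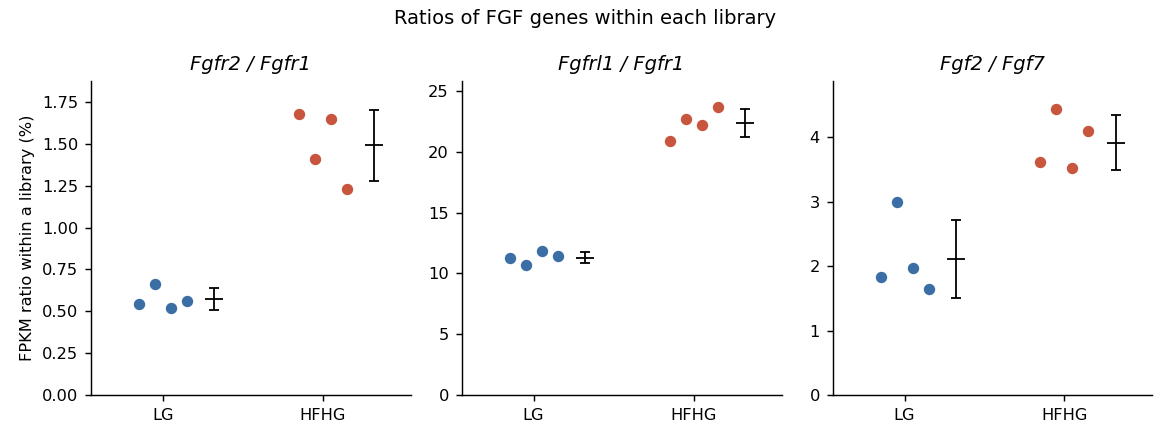
Ratio of the FPKM of 2 FGF genes within each library (vertical axes, percent, starting at 0) for the 4 LG (blue) and 4 HFHG (red) libraries, with the mean and SD in black. The HFHG points lie above the LG points in each panel, most closely for Fgf2 over Fgf7, where LG replicate 2 is at 2.99% and the lowest HFHG library at 3.52%.

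The promoters of the 5 FGF genes that rose, 250 bases before to 50 bases after the RefSeq start (build GRCm38.p6), are shown because these genes moved in the same direction. RefSeq windows were used for 8 of the 10 genes, 9 windows in all. None was used for Fgf1 or for Fgfr1, the gene that fell. The window of Fgf2 is placed on a start inside the span given for the gene above, which begins at 37348477, so part of its upstream stretch lies within that span. Capitals mark a GC box (GGGCGG), an E-box (CACGTG) or an AP-1 motif (TGANTCA) on either strand.
Fgf2, chr3:37348403-37348702, plus strand: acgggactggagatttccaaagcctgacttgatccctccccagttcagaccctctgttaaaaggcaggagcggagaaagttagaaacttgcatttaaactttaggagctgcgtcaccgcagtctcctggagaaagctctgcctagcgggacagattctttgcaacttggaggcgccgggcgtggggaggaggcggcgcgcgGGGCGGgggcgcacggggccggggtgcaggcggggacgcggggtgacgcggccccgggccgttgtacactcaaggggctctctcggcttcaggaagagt
Fgf7, chr2:126034408-126034707, plus strand: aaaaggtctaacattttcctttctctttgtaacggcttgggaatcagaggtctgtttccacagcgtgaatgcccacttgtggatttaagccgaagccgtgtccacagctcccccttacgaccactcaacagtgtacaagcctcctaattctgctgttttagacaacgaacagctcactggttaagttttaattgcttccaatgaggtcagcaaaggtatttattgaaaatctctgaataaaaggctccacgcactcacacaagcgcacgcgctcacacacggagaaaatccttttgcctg
Fgf10, chr13:118714449-118714748, plus strand: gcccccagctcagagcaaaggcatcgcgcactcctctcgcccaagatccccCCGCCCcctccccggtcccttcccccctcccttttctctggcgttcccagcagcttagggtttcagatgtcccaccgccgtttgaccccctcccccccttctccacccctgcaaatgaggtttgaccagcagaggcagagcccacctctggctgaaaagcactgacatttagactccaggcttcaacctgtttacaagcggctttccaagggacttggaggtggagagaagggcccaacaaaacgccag
Fgfr2, chr7:130266759-130267058, minus strand: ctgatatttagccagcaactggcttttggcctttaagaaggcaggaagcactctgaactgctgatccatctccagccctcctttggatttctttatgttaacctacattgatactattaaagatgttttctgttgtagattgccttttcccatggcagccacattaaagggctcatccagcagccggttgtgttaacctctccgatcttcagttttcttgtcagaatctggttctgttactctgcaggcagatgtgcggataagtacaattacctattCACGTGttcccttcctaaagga
Fgfrl1, chr5:108693979-108694278, plus strand: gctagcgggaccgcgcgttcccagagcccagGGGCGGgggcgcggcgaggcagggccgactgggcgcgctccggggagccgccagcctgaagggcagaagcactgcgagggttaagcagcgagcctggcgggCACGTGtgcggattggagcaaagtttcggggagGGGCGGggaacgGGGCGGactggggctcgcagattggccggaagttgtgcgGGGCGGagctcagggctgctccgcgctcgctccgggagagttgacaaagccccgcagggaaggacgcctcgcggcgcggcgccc

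A GC box was found once each in the windows of Fgf2 and Fgf10 and 4 times in that of Fgfrl1, and in 7 of the 9 windows of FGF genes, against 35.7% of all 32851 promoters of the same length. The 9 windows came from 8 genes and include those of Fgf18, Fgfr3 and Fgfr4, which are not among the genes that rose. Their median GC content was 65.3%, above the 52.7% of all promoters, so the comparison is not matched for base composition. The E-box stood once in Fgfr2 and once in Fgfrl1, the 2 windows of 9 that held it, against 7.15% of all promoters. The AP-1 motif was in 0 of the 9 windows, against 7.81% of all promoters. The windows of the genes that rose were unlike in base composition, with a GC content of 73.7% in Fgfrl1, 62.7% in Fgf2, 60.7% in Fgf10, 45.7% in Fgf7 and 43.7% in Fgfr2, where the median of all promoters was 52.7%. Fgf2 held 24 CpG and Fgfrl1 37, and Fgf7, Fgf10 and Fgfr2 held 11, 10 and 4, where the median was 7. No motif was thus common to all 5 windows.

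Other FGF ligand genes were scarce. Of 13 listed, 12 were in the table and 2 passed the filter. Fgf21, a hormone-like FGF that liver and stressed cells release, had 1.05, 0.567, 2.38 and 0.520 FPKM in HFHG and 0.585, 0.0291, 0.209 and 0.564 FPKM in LG. The groups overlapped, and the call (log2 fold change 1.50, SE 0.528, adjusted p = 0.0243 by limma) was lost in 7 of its 18 alternatives, with adjusted p-values from 0.00385 to 0.0769. Among these were the fits without HFHG replicate 1, HFHG replicate 3, LG replicate 2 or LG replicate 3, which gave adjusted p-values of 0.0517, 0.0769, 0.0655 and 0.0545. Klb, the gene of its co-receptor, was at most 0.0177 FPKM, and the related gene Kl at most 0.0398 FPKM. Fgf5 was not called (log2 fold change 0.31, adjusted p = 0.137). Of the intracellular FGF-like genes, Fgf11 rose (log2 fold change 0.57, adjusted p = 0.00209 by limma), and Fgf12, Fgf13 and Fgf14 were below the filter. Fibp, which encodes an FGF1-binding protein and not an FGF, fell (-0.24, adjusted p = 0.00140 by limma).

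At the cell surface, 8 of the 10 tested genes for heparan sulfate proteoglycan cores rose, 1 fell and 1 was not called, with a median log2 fold change of 0.32. Beside this and the counts that follow, 34.0% of all genes tested were called higher and 30.8% lower. Gpc4, a glypican, rose from 44.3 ± 1.30 to 75.3 ± 1.26 FPKM (SD, n = 4 each), and the syndecan gene Sdc4 from 70.1 ± 1.74 to 112 ± 2.29 FPKM. Sdc2 fell from 66.3 ± 0.974 to 54.2 ± 1.97 FPKM. Of 18 tested genes that build or edit heparan sulfate, 10 rose, 5 fell and 3 were not called (median 0.18). Sulf2, an extracellular sulfatase that removes 6-O-sulfates which FGF receptor binding uses, rose from 16.5 ± 0.403 to 31.8 ± 1.16 FPKM (SD, n = 4 each; log2 fold change 0.94). Hs6st2, which adds 6-O-sulfates, rose as well (0.64), and so did the chain polymerase gene Ext1 (0.45). Extl1 and Hs3st1, at 0.524 and 1.05 FPKM in HFHG, fell by 0.95 and 0.83 on the log2 scale. Of 6 tested co-receptor and binding protein genes, 4 rose, 1 fell and 1 was not called (median 0.36). Flrt3, a membrane protein that binds FGF receptors, had a log2 fold change of 0.66 and Nrp1 0.57, and Cdh2, the gene of N-cadherin, -0.25. These genes all passed an adjusted p-value of 0.05 by limma.

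Inside the cell, 9 of 13 genes of receptor-proximal adaptors rose, 1 fell and 3 were not called, with a median log2 fold change of 0.20. The shares over all genes tested were 34.0% called higher and 30.8% called lower. Frs2, the docking protein of FGF receptors, rose from 6.97 ± 0.137 to 9.90 ± 0.451 FPKM (SD, n = 4 each; log2 fold change 0.50). Gab1, which links the receptor complex to PI3K, had a log2 fold change of 0.83 and Crk one of -0.16. In the RAS-RAF-MEK-ERK cascade 4 of 10 genes rose, 4 fell and 2 were not called (median 0.006): Braf (0.35) and Mapk3, the gene of ERK1 (0.25), rose, while Nras (-0.48) and Map2k1, the gene of MEK1 (-0.44), fell. The feedback inhibitors were divided, with 5 of 13 higher, 4 lower and 4 not called (median 0.04). The counts of the cascade and of these inhibitors were near the shares over all genes tested. Spry1, a Sprouty gene, rose from 1.88 ± 0.262 to 5.15 ± 0.363 FPKM (SD, n = 4 each; log2 fold change 1.42), and Dusp7 rose too (0.36). Dusp4 fell from 18.8 ± 0.800 to 6.81 ± 0.446 FPKM (log2 fold change -1.45) and Dusp5, a phosphatase of nuclear ERK, from 6.20 ± 0.658 to 2.95 ± 0.304 FPKM (-1.05; SD, n = 4 for both). Among the other inhibitors, Spry4 (0.31), Lrig1 (0.19) and Spry2 (0.18) rose less, and Spred2 and Spred3 fell (-0.23 each). Dusp6 was not called (0.09, adjusted p = 0.0763 by limma). Of 10 genes that ERK signalling switches on, 1 was higher, 6 were lower and 3 were not called (median -0.20). Etv4 (0.07, adjusted p = 0.508 by limma) and Etv5 (-0.03, adjusted p = 0.560 by limma) were among those not called. Fos was the gene that was higher (0.40). Myc (-1.04), Fosl1 (-0.57), Egr1 (-0.40) and Ier3 (-0.21) were among those that were lower, Ier3 not under quantile normalization. These are calls by limma at an adjusted p-value below 0.05. Many of these genes also answer to other receptors. For comparison, the proliferation list had 1 gene higher, 3 lower and 4 not called of 8 tested.

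**Figure D4:**
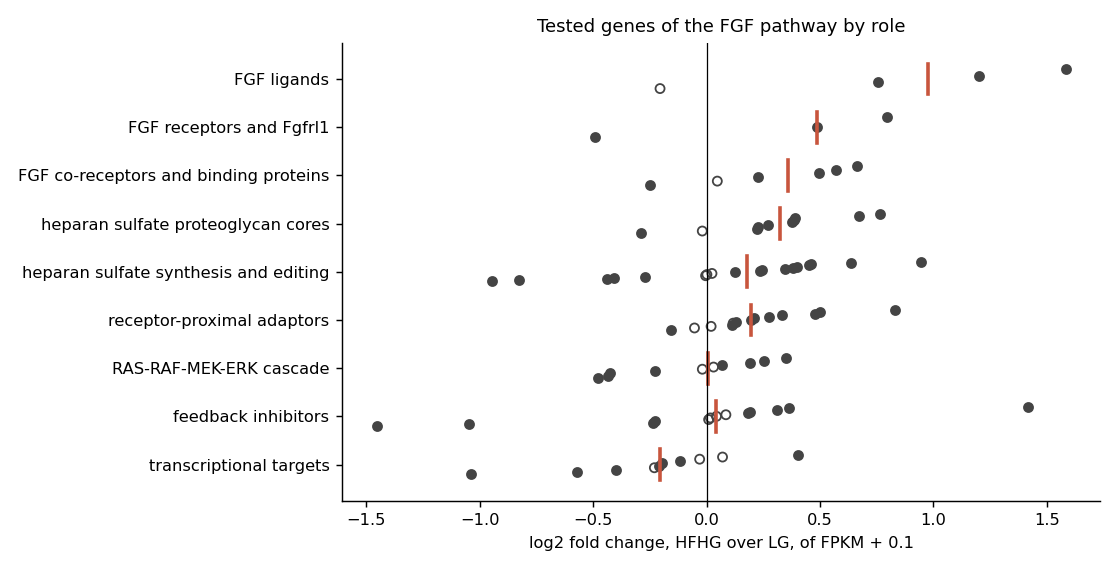
Log2 fold change (horizontal axis, HFHG over LG, of FPKM + 0.1) of each tested gene of the FGF pathway, 1 row for each role, with filled circles for an adjusted p-value below 0.05, open circles for the others and a red bar at the median of the row. The medians run from 0.98 for the 4 ligand genes to -0.20 for the target genes, and the feedback inhibitors hold both Spry1 at 1.42 and Dusp4 at -1.45.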

How the data were processed

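mRNA of primary mouse TSCs was sequenced in 8 libraries (VAHTS stranded kit, NovaSeq). LG medium held 5.5 mM glucose and DMSO, and HFHG medium had 300 µM palmitic acid with 25.5 mM glucose, as the paper's text states, and groups and replicate numbers came from the sample titles. The authors deposited FPKM for 19301 genes; the submitters' processing notes name HISAT2 2.1.0 and mm10, and the counting program and annotation are not given in the sources used here. The table also holds gene annotation, which was not used beyond symbols and NCBI gene numbers. No per-sample column was left unused.

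Genes with at least 0.5 FPKM in at least 4 of 8 libraries were tested on log2(FPKM + 0.1) with limma 3.58.1 (lmFit, eBayes with trend) in R 4.3.3, HFHG minus LG, with Benjamini-Hochberg adjustment. This scale understates the change of low genes. Where nothing says that replicates came from separate animals, p-values measure only the spread between these samples. Reads behind each FPKM were recovered as whole numbers for 19301 of 19301 genes (100%, tolerance 0.0001 reads). The listed genes held 99.8% of the recovered totals, and voom was run on these reads as an alternative. Same-numbered HFHG and LG libraries did not deviate together, which does not exclude a pairing of the cultures. Permutation tests enumerated the 70 arrangements of 4 against 4 libraries (Python 3.11.15, SciPy 1.17.1). Ratio and share values came from the FPKM.

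The genes named are the 10 FGF genes, Nudt6, for each list of related genes up to 2 with the largest rise and 2 with the largest fall at an adjusted p-value below 0.05 plus any with over 10 times the list's median level, and the 3 genes most correlated with Fgf2. Fgf5, Fgf12, Fgf13, Fgf14, Klb, Kl, Spry2, Spry4, Lrig1, Spred2, Spred3, Dusp6, Egr1, Etv4 and Etv5 were added to account for their lists after their values were seen. The FGF genes and the lists were chosen with earlier results of these data known, so no list was tested. Promoters and positions are from RefSeq (GRCm38.p6), and overlaps and transcript lengths from GENCODE M21. Alternatives were other pseudocounts (1 and 0.01), no filter, a minimum of 1 FPKM, 3 other scalings, a replicate block, no trend, voom with the filter and, chosen after seeing the data, without it, each library left out and, for the order of levels, the longest GENCODE transcript as gene length (also chosen after seeing the data). The scripts were tested on simulated data.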

Additional observations from a re-analysis of the deposited data

Results flagged for a closer look

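In groups of 4 libraries, a highest or lowest value was looked for whose gap to its neighbour, as a share of the group's range, was over the 95% critical value of Dixon. Of 122 groups checked among the named genes, 6 met this, and chance alone gives about 1 in 20. Among the FGF genes it was Fgfr3, at 0.668 FPKM in HFHG replicate 2 against 0.369 to 0.414 FPKM in the other HFHG libraries. Flrt3 had 1.33 FPKM in HFHG replicate 1, below 1.45 to 1.48 FPKM in the others. LG replicate 4 was the highest LG library by this measure for Sdc4 (72.7 FPKM, the others 68.9 to 69.4), Ier3 (559 FPKM, the others 519 to 523) and Bgn, a tendon proteoglycan gene (1436 FPKM, the others 1372 to 1379). Pdgfra had 9.99 FPKM in LG replicate 1 and 9.44 to 9.48 FPKM in the other LG libraries.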

How the results depend on the processing

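The 19 alternatives left the direction of the 7 tested FGF genes as it was, and the calls of Fgf2, Fgf7, Fgf10, Fgfr1, Fgfr2 and Fgfrl1 stayed on their side of the threshold, with adjusted p-values of at most 7.54e-04. The exception was Fgf18, with log2 fold changes from -0.39 to -0.040 when 1 library was left out, called lower only without LG replicate 3, so that the number of FGF genes called lower ran from 1 to 2. Those called higher were 5, and 6 with Fgf1 where the filter was dropped. Over all genes, 431 had a log2 fold change above 1 and 193 below -1; a pseudocount of 1 gave 197 and 106, and voom without the filter, which tests many more genes with few reads, gave 1257 and 436. Nudt6 was not called under quantile normalization (0.25, adjusted p = 0.0801), and with a minimum of 1 FPKM it was not tested. With 3 other scalings the medians of the pathway lists kept their sign, except the RAS-RAF-MEK-ERK cascade (-0.031 with median-ratio scaling) and the feedback inhibitors (-0.0035 with quantile normalization), and 7 to 10 of the 18 heparan sulfate synthesis genes were called higher. Replicate numbers are shared between the groups in the labels. With them as a replicate block, 3841 genes were higher and 3501 lower (3983 and 3609 without it), and no call of an FGF gene changed. Correlations of the deviations of same-numbered libraries were -0.0736 to -0.0056. With 4 libraries per group these values show no pairing by number and cannot exclude one. With the replicate block the log2 ratios of Fgfr2 to Fgfr1, Fgfrl1 to Fgfr1 and Fgf2 to Fgf7 differed by 1.38, 0.98 and 0.92, at p = 0.125, the smallest that an exact permutation test of 4 paired differences allows. With 1 library left out, Fgf2 to Fgf7 differed by 0.82 to 1.10 and the groups stayed apart. The permutation p-value of this ratio was 0.0571 without any 1 of the HFHG replicates, for the reason given with the ratios above. The places of Fgf2 and Fgf1 in the order of levels changed with the gene length used. Depth limits Fgfr4 most, with 3 reads in the HFHG and 5 in the LG libraries.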

Other observations

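Across the 8 libraries, the genes whose log2(FPKM + 0.1) followed that of Fgf2 most closely were Slitrk6 (Pearson's r 0.996), Igsf9b (0.995) and Hip1 (0.995), with log2 fold changes of 1.31, 0.73 and 0.38. The libraries fall into 2 separate groups, so a high r comes with any gene whose groups are apart: 832 of 11709 genes reached 0.95 and 2051 reached 0.9. LG replicate 2, which had the highest Fgf2 of the LG libraries, was also the highest LG library for Fgf1, Fgf18, Fgfr2 and Fgfr3, 5 of the 10 FGF genes in all.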
